A study of Mus musculus with 10 samples.

Results

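The 55 genes described here encode the enzymes of the urea cycle and of amino acid breakdown in the liver, together with the transporters that feed them, and were chosen by name from what their proteins do, by a rule that uses no measured value. Each of the 55 symbols was matched to 1 Ensembl gene identifier among the 55401 genes counted. All 55 were among the 12234 genes tested, which are those with 1 CPM or more (counts scaled to equal library totals) in at least 5 of the libraries. They were grouped by role into the urea cycle (7 genes), deamination and transamination (8), tyrosine (4), tryptophan (7), lysine and proline (4), histidine (4), methionine, betaine and sarcosine (10), branched-chain amino acids (7) and amino acid transport (4). The genes were measured by mRNA sequencing of whole liver in 5 wild-type mice and 5 Thrb hep-/- mice, 1 library per mouse. The comparison asks how these genes are expressed when thyroid hormone receptor beta is missing from hepatocytes. All mice carried the strain label C57Bl6/J in their titles, were untreated, and had free access to standard chow under a cycle of 12 h of light and 12 h of dark. The labels give the knockout as liver-specific, and the wild-type controls were littermates. Per the study, a floxed Thrb allele was recombined by Cre under the Afp promoter, which is active in hepatoblasts, the fetal precursors of hepatocytes and bile duct cells, so Thrb of the other liver cells is not targeted. The age, sex and time of collection of these mice are not given in the sources used here.

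Amino acids that the body does not use for protein are broken down mostly in hepatocytes. Transaminases and glutamate dehydrogenase collect their nitrogen as ammonia and glutamate, the urea cycle of the periportal hepatocytes turns this nitrogen into urea, and the carbon skeletons go on to glucose, ketone bodies or the citric acid cycle. Many of these enzymes are known to be induced by glucagon, glucocorticoids and dietary protein, and thyroid hormone is known for its effect on whole-body protein turnover.

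Proline is oxidized in mitochondria by proline dehydrogenase, encoded by Prodh, and the related enzyme encoded by Prodh2 is known to act on hydroxyproline. Both products are handled by the next enzyme, encoded by Aldh4a1. The sequences upstream of Prodh and Prodh2 are shown because the first of these genes is the only one of the 55 called different between genotypes and the other is its closest relative in the list. The 250 bases before each start are given from RefSeq on GRCm38.p6, 5′ to 3′ on the strand of the gene. Capitals mark a match to AGGTCA, the half-site that nuclear receptors such as THRB bind, on either strand.
Prodh, chr16:18089191-18089440, minus strand: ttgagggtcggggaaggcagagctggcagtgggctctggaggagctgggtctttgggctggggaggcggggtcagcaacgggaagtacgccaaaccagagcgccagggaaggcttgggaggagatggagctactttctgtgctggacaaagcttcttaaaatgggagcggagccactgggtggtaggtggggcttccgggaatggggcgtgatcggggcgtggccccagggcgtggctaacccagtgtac
Prodh2, chr7:30493408-30493657, plus strand: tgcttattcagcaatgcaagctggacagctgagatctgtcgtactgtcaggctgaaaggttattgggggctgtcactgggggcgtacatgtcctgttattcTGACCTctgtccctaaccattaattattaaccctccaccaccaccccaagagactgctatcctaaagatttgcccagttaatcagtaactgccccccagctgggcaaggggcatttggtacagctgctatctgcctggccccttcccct

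The half-site was not found upstream of Prodh and was found once, on the opposite strand, upstream of Prodh2. The Prodh start in RefSeq lies 1013 bases inside the gene as annotated by GENCODE, so the stretch shown is upstream of only some of its transcripts. Windows of 300 bases, made of 250 bases before and 50 after the start, were found for 42 of the 55 genes (47 windows). AGGTCA was present in 15 of these 47 windows (31.9%), those of Aass, Acmsd, Agxt2, Ahcy, Bckdhb, Bhmt, Gnmt, Haao, Hgd, Nags, Prodh2, Sardh, Tdo2 and Uroc1, and in 16.3% of the 32851 windows of all genes. None of these 14 genes was past the threshold of the genotype test given below. Only 1 of the 55 genes and 4.08% of all genes tested passed it, so 0 of 14 tells nothing about the matches. The direct repeat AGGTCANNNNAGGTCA, the arrangement best known for thyroid hormone receptors and made of 2 half-sites, was in 0 of the 47 windows and in 5 of the 32851. TGACGTCA, the cAMP response element that answers to glucagon signals, was in 0 of the 47 and in 1.79% of all windows, and the glucocorticoid receptor palindrome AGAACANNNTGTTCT was in 0 of the 47 and in 3 of the 32851. Both strands were searched, and the motifs were chosen after the expression values had been seen. The difference between the half-site shares of 31.9% and 16.3% was not tested. The median share of G and C was 55.33% in the windows of the list and 52.67% in all windows. A match describes letters only.

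Total counts were between 26477195 and 28590704 per library, and 3 counts corresponded to at most 0.117 normalized CPM, that is, CPM after TMM scaling of the libraries. Thrb, the targeted gene, was at 33.4, 34.2, 32.5, 33.5 and 32.9 normalized CPM across wild-type livers 1 to 5 and at 25.1, 24.9, 28.7, 25.9 and 28.8 across Thrb hep-/- livers 1 to 5. Every Thrb hep-/- mouse was below every wild-type mouse, but much of the signal remained (log2 fold change -0.32, SE 0.067, adjusted p = 0.036 with edgeR, where SE is the standard error). Dio1, a classical THRB target, was called lower at a log2 fold change of -3.03 and Me1, another target, higher at 0.79 (adjusted p = 0.065 with edgeR). They were the lowest and the highest of a list of 6 thyroid hormone genes. Of these 6, 2 were called lower, 1 higher and 3 were not called. None of 10 hepatocyte markers was called, and their summed level was 127051 to 175869 normalized CPM in wild-type and 139615 to 150143 in Thrb hep-/- livers. Their log2 fold changes lay between -0.51 and 0.30 (median 0.039). Of the 10, 2 had an unadjusted p below 0.05 and 1 had the genotypes apart, against 13.6% and 3.64% of all genes tested. Of 12 Kupffer cell and leukocyte markers 8 were tested and 1 was called, S100a8 (-2.67), and the summed level of the 8 was 104 to 351 normalized CPM in wild-type and 118 to 236 in Thrb hep-/- livers, with Ly6g at or under 3 counts in every library. All 8 had log2 fold changes below 0 (median -0.72), 4 of them at an unadjusted p below 0.05, against 13.6% of all genes tested. Of the other cell type markers tested, 0 of 8 endothelial, 0 of 3 cholangiocyte and 0 of 1 pancreas and kidney genes were called, and 1 of 8 stellate cell genes was called higher (Ecm1, 0.53). All 8 stellate cell genes had log2 fold changes above 0 (median 0.37), and 4 of them, 4 of the 8 endothelial genes (median 0.21) and 2 of the 3 cholangiocyte genes (median -0.42) had an unadjusted p below 0.05. The part of these cell types in the results below was not tested. In whole liver, fewer cells of a type and less RNA per cell cannot be told apart. Among 22 acute-phase genes, plasma proteins that the liver makes in inflammation, 14 were called lower and 0 higher, and their sum was 47303 to 103683 normalized CPM in wild-type and 33240 to 51853 in Thrb hep-/- livers. The acute-phase difference therefore runs with genotype in these mice.

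Prodh was lower in Thrb hep-/- livers, at 0.47-fold the wild-type level, and was the only one of the 55 genes past an adjusted p of 0.15, the threshold of the study, in edgeR's quasi-likelihood F-test. That is 1 of 55 or 1.82% of the list, against 4.08% of all genes tested. Of all genes tested, 2.57% were called lower. At an adjusted p of 0.05 the count was 0 of 55, against 1.35% of all genes, while 5 of 55 (9.09%) had an unadjusted p below 0.05, against 13.6%, namely Prodh, Sds, Kmo, Cth and Ivd. With DESeq2, 3 of the 55 (5.45%) passed 0.15 (Cth, Prodh and Sds), against 7.24% of all genes, and 1 (1.82%) passed 0.05, against 4.10%. Leaving out Thrb hep-/- mouse 3 lowered the count at 0.15 to 0, and leaving out Thrb hep-/- mouse 2 raised it to 2 by adding Arg1. Over all genes tested, the calls also went from 499 of 12234 to 222 of 12167 without mouse 3 and to 611 of 12170 without mouse 2. Genotypes were apart, with every mouse of one above every mouse of the other, in 0 of 55 genes, against 3.64% of all genes tested. With other filters on low counts Prodh came out just apart, as given below. Each percentage given here for the 55 was below that of all genes, and the differences between the shares were not tested.

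The fitted log2 fold change, Thrb hep-/- over wild-type, was above 0 in 26 of the 55 genes and below 0 in 29. Its median was -0.013, beside 0.00054 over all genes tested, and its median size without regard to sign was 0.12, beside 0.11. Without Prodh, the range was from -0.66 (Sds) to 0.33 (Cth). The 95% interval of the fold change lay within a 2-fold change either way for 52 of 55 genes, all but Prodh, Sds and Bhmt, and within a 1.5-fold change for 47 of 55. For most of the list, differences beyond these sizes lie outside the interval, while 5 mice per genotype leave smaller differences unresolved. With the first principal component of the acute-phase genes as a covariate the median was 0.19 and 0 of 55 genes were called. In that fit only 10 of the 12234 genes were called, and Thrb itself was not (adjusted p = 0.9998 with edgeR). The component lay between -0.22 and 6.74 in wild-type and between -5.64 and -1.25 in Thrb hep-/- mice, without overlap.

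**Figure D1:**
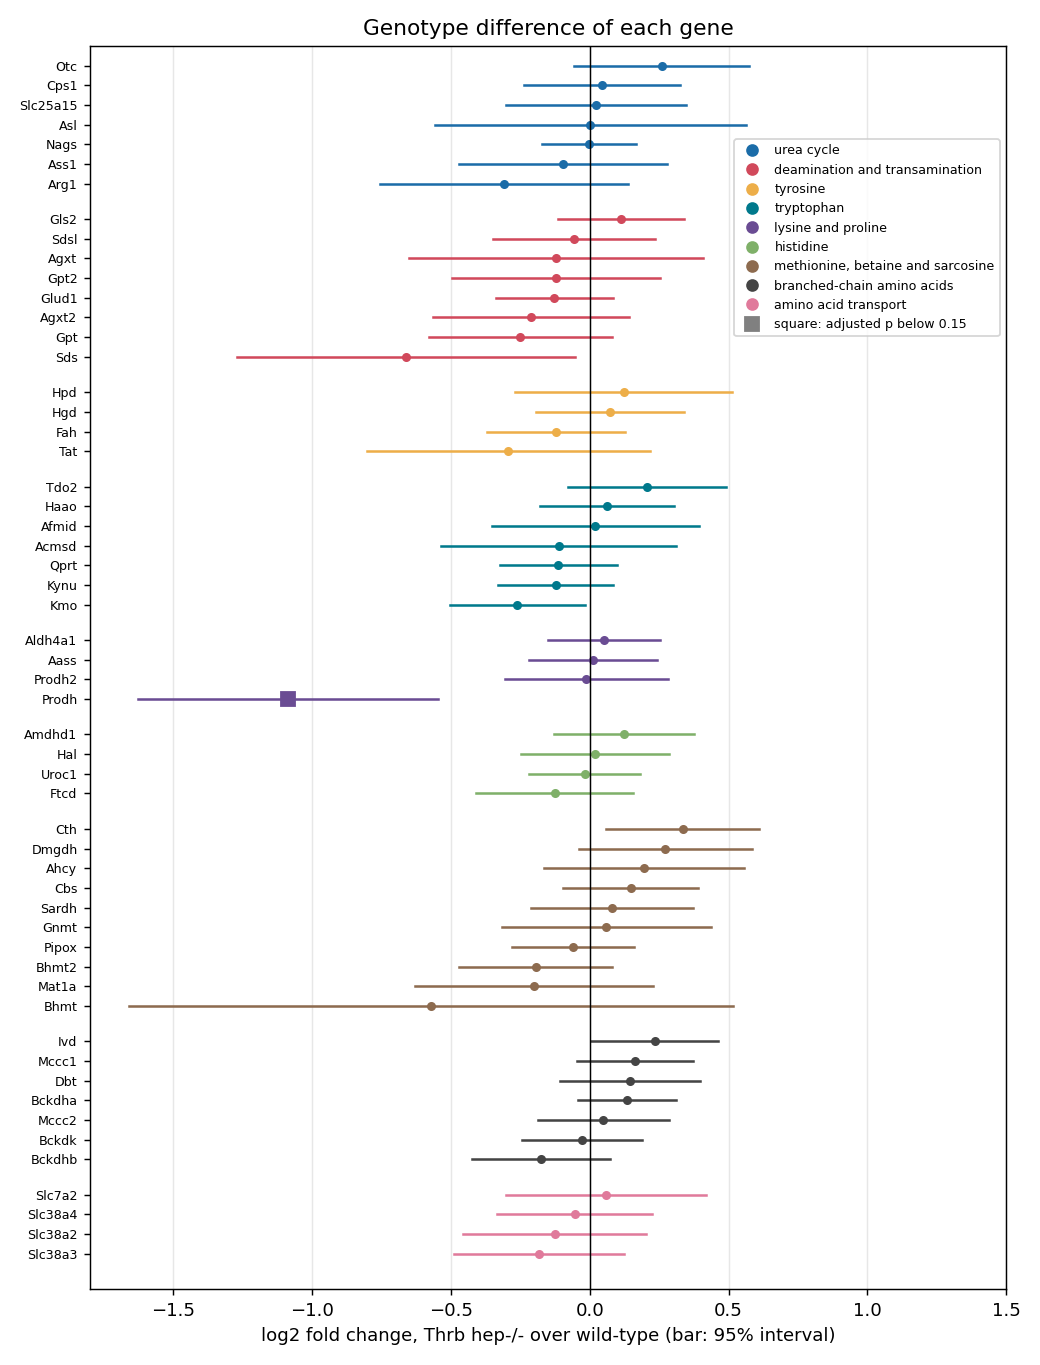
Fitted log2 fold change of each of the 55 genes, Thrb hep-/- over wild-type (x axis), with its 95% interval, grouped and coloured by role; a square marks an adjusted p below 0.15. Prodh, at -1.09, is the only square, and the other points lie between -0.66 and 0.33.

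Levels of different genes were compared as normalized CPM per kilobase of exon. In wild-type livers the highest of the 55 was Mat1a, which makes S-adenosylmethionine from methionine, at 1151 ± 290.1 (SD, n = 5). It was followed by Gnmt, which consumes S-adenosylmethionine, at 1141 ± 205, and by the urea cycle genes Ass1 at 1032 ± 202 and Cps1 at 872 ± 92.99. These neighbours did not differ beyond their spread. The lowest were Mccc1, a subunit of the leucine enzyme methylcrotonyl-CoA carboxylase, at 3.25 ± 0.224, Bckdk, the kinase that switches off branched-chain ketoacid dehydrogenase, at 3.80 ± 0.138, and Afmid of the tryptophan pathway at 5.40 ± 1.03. Prodh ranked 46 of 55 at 31.5 ± 11.1 in wild-type and 14.8 ± 4.49 in Thrb hep-/- livers. The length used merges all annotated exons of a gene, 10952 bases for Mccc1, 7797 for Prodh and 2459 for Prodh2. These ranks depend on it. Before division by length, the wild-type mean of Prodh (246 normalized CPM) was above that of Prodh2 (191), and that of Mccc1 (35.6) above that of Bckdk (14.1). The 55 genes together made up 3.35% to 4.60% of the normalized counts in wild-type and 2.87% to 4.52% in Thrb hep-/- mice, ranges that overlap over most of their width.

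**Figure D2:**
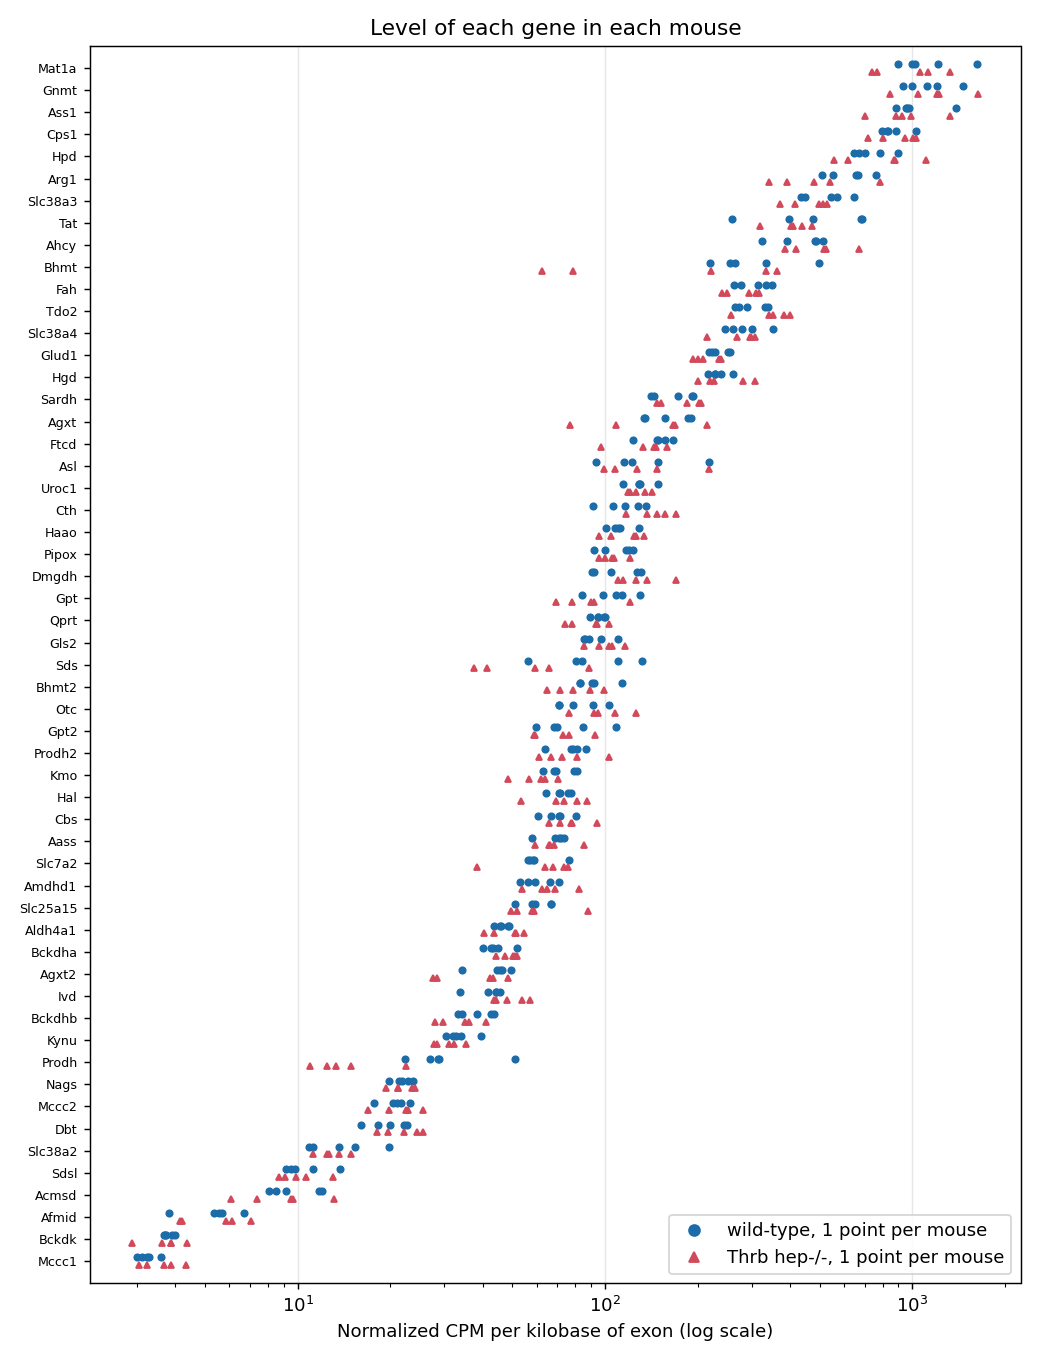
Level of each of the 55 genes in normalized CPM per kilobase of exon (x axis, log scale), 1 point per mouse, circles for the 5 wild-type and triangles for the 5 Thrb hep-/- mice, ordered by the wild-type mean. The levels span from about those of Mccc1 (3.25 in wild-type mice) to those of Mat1a (1151), and in no gene are the genotypes apart.

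Of the 7 urea cycle genes 0 passed the test, 4 were fitted higher and 3 lower in Thrb hep-/- livers, and the median log2 fold change was 0.0015. Cps1 and Otc encode the mitochondrial steps that make carbamoyl phosphate and citrulline, Ass1 and Asl the cytosolic steps that make arginine, Arg1 the arginase that releases urea, Nags the enzyme that makes the activator of CPS1, and Slc25a15 the ornithine carrier. Cps1 (ENSMUSG00000025991, chromosome 1 from 67123026 to 67231259, plus strand) was at 4589, 4407, 4608, 4919.6 and 5710.0 normalized CPM across wild-type livers 1 to 5 and at 4445, 5709, 5254, 3994 and 5591 across Thrb hep-/- livers 1 to 5. The groups overlapped almost fully (log2 fold change 0.04, SE 0.13, adjusted p = 0.93 with edgeR), and the 95% interval of the fold change was 0.849 to 1.25. The gene with the lowest p of the group was Otc, at 387, 299, 301, 438 and 335 normalized CPM across wild-type livers 1 to 5 and at 323, 534, 392, 403 and 455 across Thrb hep-/- livers 1 to 5. In the Thrb hep-/- group, mice 2 and 5 were above all wild-type mice and the other 3 were among them (log2 fold change 0.26, SE 0.15, adjusted p = 0.47 with edgeR).

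Ass1, the urea cycle gene with the highest level per length, was at 2313, 2294, 2142, 2356 and 3352 normalized CPM across wild-type livers 1 to 5 and at 2237, 3192, 2137, 1690.3 and 2390.0 across Thrb hep-/- livers 1 to 5. Wild-type mouse 5 and Thrb hep-/- mouse 2 were far above the rest of their groups, and the genotypes overlapped (log2 fold change -0.10, SE 0.17, adjusted p = 0.87 with edgeR). Without wild-type mouse 5 the sign of the Ass1 difference changed (0.033). Arg1 was at 1481, 1229, 1129.7, 1456 and 1702 normalized CPM across wild-type livers 1 to 5 and at 762, 1749, 1204, 869.9 and 1064 across Thrb hep-/- livers 1 to 5. Knockout mice 1, 4 and 5 were below the lowest wild-type mouse, whereas Thrb hep-/- mouse 2 was the highest of all 10 (log2 fold change -0.31, SE 0.20, adjusted p = 0.56 with edgeR). Arg1 passed the threshold without that mouse (log2 fold change -0.52, adjusted p = 0.1498 with edgeR) and in no other alternative, over which its adjusted p reached 0.9998. The values of Cps1 and Arg1 were singled out after they had been seen. Asl, Nags and Slc25a15 were at log2 fold changes between -0.0017 and 0.021.

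Of the 8 genes of deamination and transamination, 0 passed the test, and 7 of 8 were fitted lower in Thrb hep-/- livers with a median of -0.12. The genes of the list varied together between mice, as given below, so the signs within a role group are not independent. Counts of signs were not tested. Glud1, glutamate dehydrogenase and the highest of the group per length, was at 1059, 1077, 915, 958 and 940.3 normalized CPM across wild-type livers 1 to 5 and at 846, 985, 1005, 879 and 814 across Thrb hep-/- livers 1 to 5. Thrb hep-/- mice 1, 4 and 5 were below all wild-type mice, and the others overlapped (log2 fold change -0.13, SE 0.097, adjusted p = 0.62 with edgeR). Sds, serine dehydratase, which turns serine into pyruvate and is strongly regulated by diet, was at 187, 142, 137, 95.2 and 224 normalized CPM across wild-type livers 1 to 5 and at 100.5, 150.2, 111, 63.7 and 70.1 across Thrb hep-/- livers 1 to 5. Only Thrb hep-/- mice 4 and 5 were below the lowest wild-type mouse, and the spread was wide in both groups (log2 fold change -0.66, SE 0.27, adjusted p = 0.33 with edgeR). DESeq2 called Sds (adjusted p = 0.14), and its adjusted p was between 0.14 and 0.9998 over the 21 alternatives. Of its 1694 bases of exon, 501 are shared with Plbd2 and Gm15690, where reads went uncounted. The paralog Sdsl was at a log2 fold change of -0.057. The alanine transaminases Gpt and Gpt2, the glyoxylate transaminases Agxt and Agxt2 and the liver glutaminase Gls2 lay between -0.25 and 0.11.

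In the tyrosine pathway, which runs from the transaminase TAT through HPD and HGD to FAH, 0 of 4 genes passed the test. Hpd, the highest per length, was at 1494, 1372, 1431, 1669 and 1909 normalized CPM across wild-type livers 1 to 5 and at 1870.2, 2357, 1310.5, 1180.2 and 1849.6 across Thrb hep-/- livers 1 to 5. Thrb hep-/- mice reached both above and below the wild-type range (log2 fold change 0.12, SE 0.18, adjusted p = 0.83 with edgeR), and without Thrb hep-/- mouse 2 the sign changed (-0.016). Tat, a classical glucocorticoid-induced gene, was at 1646, 955, 1143, 622 and 1637 normalized CPM across wild-type livers 1 to 5 and at 1048, 1130.2, 767, 970.1 and 983 across Thrb hep-/- livers 1 to 5. All 5 Thrb hep-/- mice lay within the wild-type range, which wild-type mouse 4 extended downwards (log2 fold change -0.29, SE 0.23, adjusted p = 0.64 with edgeR). Hgd and Fah were at 0.073 and -0.12.

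The tryptophan pathway begins with Tdo2 and passes through Afmid, Kmo, Kynu and Haao towards Acmsd or, for NAD synthesis, Qprt, and 0 of its 7 genes passed the test. Tdo2, the highest per length, was at 1290.4, 1319, 1060.4, 1125 and 1026 normalized CPM across wild-type livers 1 to 5 and at 995, 1553, 1480.3, 1323 and 1363 across Thrb hep-/- livers 1 to 5. In the Thrb hep-/- group, mice 2 to 5 were above all wild-type mice and mouse 1 was below them all (log2 fold change 0.21, SE 0.13, adjusted p = 0.53 with edgeR). Kmo, kynurenine 3-monooxygenase, was at 383, 297, 322, 374 and 327 normalized CPM across wild-type livers 1 to 5 and at 292, 331, 268, 228 and 302 across Thrb hep-/- livers 1 to 5. Knockout mice 1, 3 and 4 were below the wild-type range (log2 fold change -0.26, SE 0.11, adjusted p = 0.33 with edgeR), and the adjusted p of Kmo was between 0.18 and 0.9998 over the alternatives. The other 5 genes were between -0.12 and 0.063. Of the 3539 exon bases of Afmid, 1649 are shared with other genes, which leaves its level uncertain.

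Prodh (ENSMUSG00000003526, chromosome 16 from 18060357 to 18090203, minus strand, GRCm38) was at 210.1, 175, 225, 223 and 396 normalized CPM across wild-type livers 1 to 5 and at 116, 175, 97.5, 85.3 and 104 across Thrb hep-/- livers 1 to 5. Thrb hep-/- mice 1, 3, 4 and 5 were below the lowest wild-type mouse, and Thrb hep-/- mouse 2 at 175.0 was level with wild-type mouse 2 at 174.9. Wild-type livers averaged 246 ± 86.4 and Thrb hep-/- livers 116 ± 35.0 normalized CPM (SD, n = 5 each). This was a fold of 0.47 with a 95% interval of 0.324 to 0.684 (log2 fold change -1.09, SE 0.24, adjusted p = 0.063 with edgeR). An exact two-sided permutation test over the 10 mice gave p = 0.0159. This p is unadjusted and comes from the same values by which Prodh was singled out, so it is no independent support. No exon of Prodh overlaps one of another gene. Because the nearest pair of mice differed by so little, the groups were apart when the libraries were scaled over unfiltered genes or over those kept by filterByExpr, and overlapped with RLE and upper-quartile factors.

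The Prodh difference was in the same direction in all 21 alternatives, at log2 fold changes between -1.28 and -0.58, and past an adjusted p of 0.15 in 19 of them, over an adjusted p range of 0.00027 to 0.9998. It was not past it without Thrb hep-/- mouse 3 (-1.03, adjusted p = 0.16, edgeR) or with the acute-phase component as covariate (-0.58, adjusted p = 0.9998, edgeR). The 21 alternatives, here and for other genes, include the fit without wild-type mouse 5 and Thrb hep-/- mouse 2. That fit was chosen after the values had been seen and is no support. Wild-type mouse 5, at 396.0, was far above the other wild-type mice, and without it the log2 fold change was -0.85 (adjusted p = 0.069, edgeR). Across wild-type livers 1 to 5 the acute-phase component took values of 3.84, 6.74, -0.22, 1.59 and 4.95, against -1.74, -1.25, -4.96, -5.64 and -3.30 across Thrb hep-/- livers 1 to 5. Among wild-type mice, mouse 2 had the highest component and the lowest Prodh level, while mouse 5 had the component next to the highest and the highest Prodh level, and mouse 3 had the lowest component and a Prodh level of 225. Among Thrb hep-/- mice, mouse 2 was highest and mouse 4 lowest in both. The part of the acute-phase difference in that of Prodh cannot be told apart from genotype in these mice.

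Prodh2 (ENSMUSG00000036892, chromosome 7 from 30493622 to 30513402, plus strand) was at 193, 157, 190.0, 199 and 214 normalized CPM across wild-type livers 1 to 5 and at 199, 253, 164, 149 and 179 across Thrb hep-/- livers 1 to 5. The genotypes overlapped, at a log2 fold change of -0.01 (SE 0.14, adjusted p = 0.98 with edgeR) with a 95% interval of the fold change of 0.808 to 1.21. Aldh4a1, which takes up the product of both enzymes, was at 237, 214, 223, 226 and 239 normalized CPM across wild-type livers 1 to 5 and at 267, 249.6, 214, 198 and 253 across Thrb hep-/- livers 1 to 5. It too overlapped (log2 fold change 0.05, SE 0.092, adjusted p = 0.88 with edgeR), and 1595 of its 4907 exon bases are shared with Gm21969. Aass, which starts lysine breakdown, was at a log2 fold change of 0.011.

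The ratio of Prodh to Prodh2 within a mouse, in normalized CPM, was 1.09, 1.11, 1.18, 1.12 and 1.85 across wild-type mice 1 to 5 and 0.585, 0.691, 0.594, 0.571 and 0.582 across the Thrb hep-/- mice. All Thrb hep-/- mice were below all wild-type mice, mouse 2 included. The difference of the mean log2 ratio was -1.04. The ratio of Prodh to Aldh4a1 was 0.816 to 1.65 in wild-type and 0.412 to 0.701 in Thrb hep-/- mice, a difference of -1.12 on the log2 scale. Both ratios set the called gene over genes seen not to be called, so they are a description with no test.

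**Figure D3:**
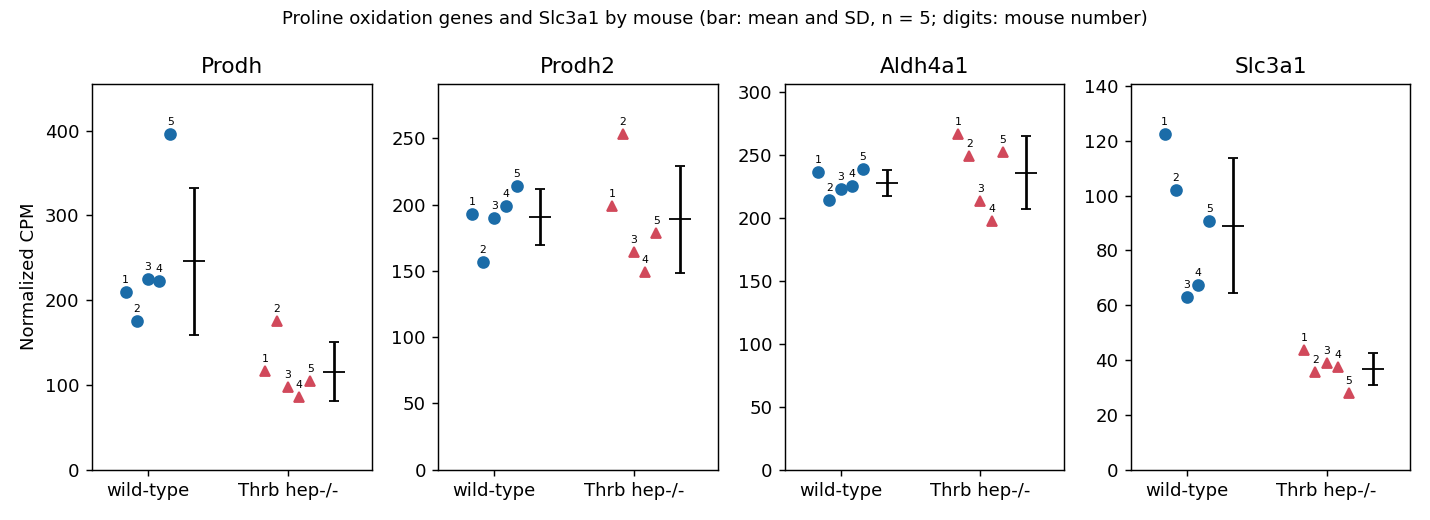
Normalized CPM (y axes, from 0) of Prodh, Prodh2, Aldh4a1 and Slc3a1 in each mouse, circles for wild-type and triangles for Thrb hep-/- mice, digits giving the mouse number and bars the mean and SD (n = 5). Prodh was 0.47-fold in Thrb hep-/- livers, with mouse 2 of both genotypes at about 175, Prodh2 and Aldh4a1 overlapped, and Slc3a1 was apart.

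In histidine breakdown, which proceeds from HAL through UROC1 and AMDHD1 to FTCD, 0 of 4 genes passed the test and the log2 fold changes lay between -0.13 and 0.12. Ftcd, the highest per length, was at 469.8, 393, 474, 499 and 532 normalized CPM across wild-type livers 1 to 5 and at 462, 507, 423, 309.9 and 468 across Thrb hep-/- livers 1 to 5. Thrb hep-/- mouse 4 alone was below the wild-type range (log2 fold change -0.13, SE 0.13, adjusted p = 0.74 with edgeR). Amdhd1, the gene with the lowest p of the group, was at a log2 fold change of 0.12 (SE 0.12, adjusted p = 0.71 with edgeR).

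The methionine cycle and its branches hold 10 genes, of which 0 passed the test, 6 were fitted higher and 4 lower. Mat1a was at 4214, 3539, 3107, 3456 and 5642 normalized CPM across wild-type livers 1 to 5 and at 3889, 4579.5, 3669.9, 2565 and 2653 across Thrb hep-/- livers 1 to 5. The genotypes overlapped, with Thrb hep-/- mice 4 and 5 the lowest (log2 fold change -0.20, SE 0.20, adjusted p = 0.72 with edgeR). Cth, cystathionine gamma-lyase, which makes cysteine and is known as a source of hydrogen sulfide, was at 358, 323, 255, 295 and 380.1 normalized CPM across wild-type livers 1 to 5 and at 381, 474, 437, 327 and 412 across Thrb hep-/- livers 1 to 5. In the Thrb hep-/- group, mice 1, 2, 3 and 5 were above all wild-type mice and mouse 4 was among them (log2 fold change 0.33, SE 0.13, adjusted p = 0.27 with edgeR). Its adjusted p was between 0.15 and 0.98 over the alternatives, and only DESeq2 placed it just inside the threshold.

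Bhmt, which remethylates homocysteine with betaine, was the most variable of the 55 genes among Thrb hep-/- mice. It was at 1469.6, 1527, 1268, 1929 and 2867 normalized CPM across wild-type livers 1 to 5 and at 2085, 1921, 455, 359 and 1272 across Thrb hep-/- livers 1 to 5. Knockout mice 3 and 4 were far below all others, while mice 1, 2 and 5 lay within the wild-type range (log2 fold change -0.57, SE 0.49, adjusted p = 0.67 with edgeR). The coefficient of variation of Bhmt was 65.8% among Thrb hep-/- and 35.1% among wild-type mice, beside medians over the 55 genes of 15.7% and 13.2% and over all genes tested of 13.7% and 11.8%. Bhmt was singled out after its values had been seen. The same 2 mice had the lowest acute-phase components, and with that component as covariate the sign of the Bhmt difference was reversed (0.82). The neighbouring paralog Bhmt2 was at -0.20, and Cbs, Gnmt, Ahcy, Pipox, Dmgdh and Sardh lay between -0.060 and 0.27.

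Among the 7 genes for branched-chain amino acids 0 passed the test, 5 were fitted higher and 2 lower, with a median of 0.14. Bckdha, a subunit of branched-chain ketoacid dehydrogenase and the highest of the group per length, was at 85.1, 81.1, 76.1, 98.3 and 81.8 normalized CPM across wild-type livers 1 to 5 and at 83.6, 98.4, 89.5, 97.0 and 95.5 across Thrb hep-/- livers 1 to 5. The groups overlapped (log2 fold change 0.14, SE 0.081, adjusted p = 0.51 with edgeR), and 1171 of its 1899 exon bases are shared with B3gnt8. Ivd, isovaleryl-CoA dehydrogenase of the leucine pathway, was at 244, 186, 229.7, 250.3 and 243 normalized CPM across wild-type livers 1 to 5 and at 264, 313, 244, 240.0 and 296 across Thrb hep-/- livers 1 to 5. Thrb hep-/- mice 1, 2 and 5 were above all wild-type mice (log2 fold change 0.23, SE 0.11, adjusted p = 0.36 with edgeR). The remaining dehydrogenase subunits Bckdhb and Dbt, their kinase Bckdk, and the carboxylase subunits Mccc1 and Mccc2 lay between -0.18 and 0.16.

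Of the 4 transporters 0 passed the test. Slc38a3, which carries glutamine and histidine across the hepatocyte membrane, had both the highest level per length and the lowest p, at 2993, 2292, 2363, 2872 and 3399 normalized CPM across wild-type livers 1 to 5 and at 2777, 2706, 2187, 1964 and 2628 across Thrb hep-/- livers 1 to 5. In the Thrb hep-/- group, mice 3 and 4 were below the wild-type range (log2 fold change -0.18, SE 0.14, adjusted p = 0.63 with edgeR). The neutral amino acid transporters Slc38a2 and Slc38a4 and the arginine transporter Slc7a2 were at -0.13, -0.055 and 0.057.

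The 55 genes varied together between mice of 1 genotype. Among Thrb hep-/- mice, mouse 2 had the highest value in 38 of 55 genes (69.1%), against 27.4% of all genes tested, and mouse 4 the lowest in 39 (70.9%), against 21.4%. Among wild-type mice, mouse 5 was highest in 28 (50.9%), against 21.7%, mouse 2 was lowest in 24 (43.6%), against 18.0%, and mouse 3 was highest in 0 and lowest in 18. In the urea cycle, Thrb hep-/- mouse 2 was highest in 6 of 7 genes and wild-type mouse 5 in 4 of 7. The median deviation from the genotype mean over the 55 genes was 0.23 on the log2 scale in Thrb hep-/- mouse 2, -0.28 in mouse 4 and 0.17 in wild-type mouse 5, against a median over all genes between -0.0069 and 0.012 in each mouse. Of 14 clock genes 0 were called, and their first principal component was also highest within its genotype in wild-type mouse 5 (4.57) and Thrb hep-/- mouse 2 (2.48), but lowest in wild-type mouse 2 (-1.85) and Thrb hep-/- mouse 1 (-4.03) and not in mouse 4 (-1.65). Its part in the spread of the 55 genes was not tested. Among Thrb hep-/- mice the TMM factor was lowest in mouse 2 (0.962) and highest in mouse 4 (1.064). Among wild-type mice it was lowest in mouse 1 (0.945) and highest in mouse 3 (1.059), with mouse 5 at 0.977. The part of the scaling in this spread was not tested either. With both high mice, wild-type mouse 5 and Thrb hep-/- mouse 2, left out, Prodh was at -1.04 (adjusted p = 0.0032, edgeR). It was the only one of the 55 called, and the genotypes were apart for it. Both mice were chosen after the values had been seen, and each had the highest Prodh level of its genotype (396.0 and 175.0 normalized CPM). Leaving them out narrows the spread of Prodh and takes away its only overlap, so this fit is a description and no support.

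**Figure D4:**
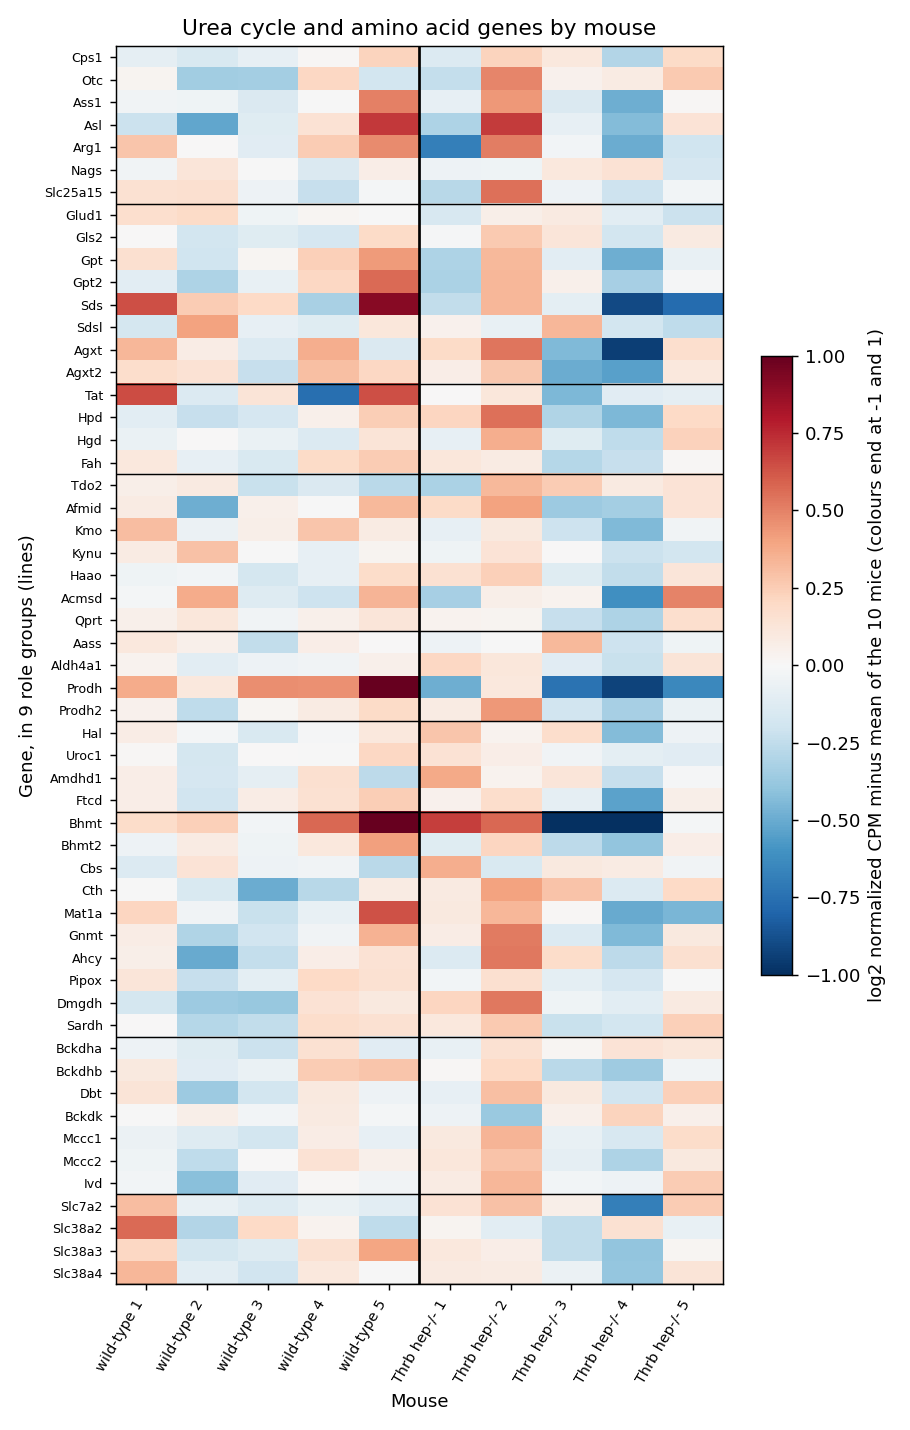
Log2 normalized CPM of each of the 55 genes (rows, in 9 role groups) in each of the 10 mice (columns), minus the mean of the 10 mice, with colours ending at -1 and 1. Wild-type mouse 5 and Thrb hep-/- mouse 2 are red and Thrb hep-/- mouse 4 is blue in most rows, across role groups, and the Prodh row is red in wild-type mice and blue in Thrb hep-/- mice other than mouse 2.

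A wider list of 98 other genes of amino acid metabolism and transport, 91 of them tested, held 5 calls at an adjusted p of 0.15, 2 higher and 3 lower, a share near the background of 4.08%. Slc3a1, which encodes rBAT, the heavy subunit of a transporter of cystine and dibasic amino acids, was at 123, 101.99, 63.1, 67.2 and 90.7 normalized CPM across wild-type livers 1 to 5 and at 43.6, 35.7, 39.0, 37.5 and 28.0 across Thrb hep-/- livers 1 to 5. The genotypes were apart (log2 fold change -1.28, SE 0.18, adjusted p = 0.0063 with edgeR). It was called in 20 of 21 alternatives, the exception being the acute-phase component (-0.73), and 601 of its 2271 exon bases are shared with Prepl. Its partner Slc7a9 was at or under 3 counts in every library.

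Kyat1, a kynurenine aminotransferase of the tryptophan pathway, was at 231, 171, 200.3, 187 and 252 normalized CPM across wild-type livers 1 to 5 and at 152, 149, 175, 154 and 159.5 across Thrb hep-/- livers 1 to 5. Knockout mice 1, 2, 4 and 5 were below all wild-type mice (log2 fold change -0.40, SE 0.11, adjusted p = 0.092 with edgeR), and it was called in 14 of 21 alternatives but not without wild-type mouse 1 or 5 or Thrb hep-/- mouse 4 or 5. Slc25a12, a mitochondrial carrier of aspartate and glutamate, was lower at a log2 fold change of -0.22 (adjusted p = 0.13, edgeR) with the genotypes apart, and was called in 7 of 21 alternatives, among them only those without wild-type mouse 3 or Thrb hep-/- mouse 1 of the 10 that leave out 1 mouse. Slc3a2, the heavy subunit shared by several amino acid transporters, was higher at 0.39 (adjusted p = 0.090, edgeR) and was lost without wild-type mouse 2, 4 or 5 or Thrb hep-/- mouse 3 or 4. Srr, serine racemase, was higher at 0.23 (adjusted p = 0.11, edgeR), was lost in 7 of the 10 fits that leave out 1 mouse, the exceptions being wild-type mouse 1 and Thrb hep-/- mice 1 and 2, and shares 1366 of its 4560 exon bases with Smg6 and Tsr1. The highest log2 fold change of the list was that of the glutamine transporter Slc1a5, 0.998 (adjusted p = 0.36, edgeR), with Thrb hep-/- mice at 9.20, 2.66, 3.53, 14.4 and 10.9 normalized CPM and wild-type mice between 2.89 and 5.73. Only Thrb hep-/- mice 1, 4 and 5 were above the wild-type range, and Slc1a5 passed the threshold without mouse 2 (1.23). Oat, Aldh18a1 and Pycrl, whose enzymes act in making proline or in interconverting it with ornithine, were not called (between -0.26 and 0.31) and Pycr1 was below the filter.

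Among 17 regulators of amino acid catabolism, such as the glucagon receptor Gcgr, the glucocorticoid receptor Nr3c1 and the factors Cebpa, Ppargc1a and Creb3l3, 0 were called, 1 had an unadjusted p below 0.05 (Creb3l3, 0.29, adjusted p = 0.28 with edgeR), and the lowest log2 fold change was -0.29 (Per1). Of 10 periportal markers, which mark the hepatocytes where most urea is made, Aldh1b1 (-0.93) and Apof (-0.34) were called lower and Ctsc (0.38) higher. That is 3 of 10, against 4.08% of all genes tested, and the genotypes were apart in 3 of the 10, against 3.64%. The difference between these shares was not tested. Of 12 pericentral markers 11 were tested and 0 called. The 7 urea cycle genes themselves, the defining periportal group, were not called in either direction. With 4.08% of all genes tested called, 0 of 7 does not set them apart from other genes.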

How the data were processed

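Per the study, the authors mapped stranded mRNA reads on mm10 (GRCm38) with HISAT2 2.2.1 and counted those on Ensembl exons with HTSeq 0.9.1 (union mode, alignment quality of 10 or more), ignoring strand and dropping multiply mapped and ambiguous reads. Versions are from the submitters' processing notes. The values deposited are raw counts per gene. Without strand, reads of overlapping antisense genes cannot be told apart, and reads over shared exons were dropped. A deposited table of the authors' own comparison by edgeR 3.36.0 (log2 fold change, mean log2 CPM, F, p and adjusted p) was not used.

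The counts were fitted here by edgeR 4.0.16 (R 4.3.3). A gene needed 1 CPM or more in at least 5 libraries, TMM factors were applied, and genotypes compared with the robust quasi-likelihood F-test over all 12234 genes, with Benjamini-Hochberg adjustment. Called means an adjusted p below 0.15, and 0.05 is given beside it. The SE is the size of the log2 fold change over the root of F. The fit was tested on simulated data. Mice are the replicates, so p-values cover the spread between animals of these groups. Alternatives were RLE and upper-quartile factors, no filter, filterByExpr, no robust settings, the replicate number as a block, an acute-phase or clock component (first principal component of log2 CPM, prior count 2), limma-voom (limma 3.58.1), DESeq2 1.42.0, leaving out each mouse and, chosen after seeing the data, leaving out wild-type mouse 5 and Thrb hep-/- mouse 2. Exon lengths and coordinates come from GENCODE on GRCm38, in another release than the one counted. Named genes are Thrb and, of the 55, those called or with non-overlapping genotypes, the highest and lowest log2 fold changes, and in each role group the highest level per length and lowest p. Of other lists the rule takes called genes and both extremes of the log2 fold change, but acute-phase, clock and cell type lists are given mainly by counts. The genes and lists were chosen with earlier results of these data known. No 2 libraries of a genotype agreed within sampling noise (chi-square per degree of freedom 23.5 to 103).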

Additional observations from a re-analysis of the deposited data

Results flagged for a closer look

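In 124 groups of 5 mice, the 2 genotypes of the 55 genes and of 7 other named genes, 4 groups held a mouse far from the others of its genotype by Dixon's criterion at 95%, where chance gives about 6.2. Ass1 was at 3352 normalized CPM in wild-type mouse 5, against 2142 to 2356 in the other wild-type mice. Slc25a15 was at 495.6 in Thrb hep-/- mouse 2, against 279 to 331. Prodh was at 396.0 in wild-type mouse 5, against 175 to 225. Slc7a2 was at 695.6 in wild-type mouse 1, against 514 to 536.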

How the results depend on the processing

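Of the 55 genes, the count past an adjusted p of 0.15 was 1, falling to 0 with the acute-phase component as covariate, and was 3 with DESeq2 and 0 to 2 with single mice left out. At 0.05 it was 0, and it was 1 without robust settings, with the clock component, limma-voom, DESeq2 or both high mice left out, and 0 to 1 with single mice left out. Genotypes were apart in 0 genes, and in 1 without a filter, with filterByExpr or with both high mice left out (Prodh each time), and in 0 to 1 with single mice left out. The median log2 fold change of -0.013 moved to 0.19 with the acute-phase component. The 5 calls of the wider list became 3 without a filter, 1 with the replicate block and 0 with the acute-phase component. They became 8 with limma-voom, 3 with both high mice left out and 1 to 8 with single mice left out. Over all genes tested, 499 of 12234 were called at 0.15, against 641 of 27817 without a filter, 348 with the replicate block and 10 with the acute-phase component. That count was 849 with limma-voom, 885 with DESeq2, 305 with both high mice left out and 222 to 665 with single mice left out. Changes in the share of the lists beside all genes were not tested. With the acute-phase component, which does not overlap between genotypes, the sign was reversed for Arg1 (0.056), Ass1 (0.42), Bhmt (0.82), Ftcd (0.021), Mat1a (0.41), Prodh2 (0.20), Sds (0.077), Slc38a3 (0.12) and Tat (0.15), and that of Prodh2 with the clock component (0.032). With single mice left out, Ass1 was between -0.23 and 0.033, Cps1 between -0.0022 and 0.12, Hpd between -0.016 and 0.23 and Prodh2 between -0.14 and 0.060. Same-numbered mice of the 2 genotypes did not deviate together (correlations of -0.20 to 0.0091), and the main fit does not pair them. This check cannot show whether the numbers follow litter or order of processing. With the replicate block Prodh was at -1.08 (adjusted p = 0.13, edgeR). The lowest value of any of the 55 genes in any mouse was 10.7 normalized CPM, above the 0.117 to which 3 counts correspond, and with 5 mice per genotype the median distance from the estimate to the end of the 95% interval was 0.28 on the log2 scale.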
